A study of Mus musculus with 2 samples.

Results

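Wnt signalling genes were followed across the cell populations found in libraries of embryonic mouse neocortex. These were 35 genes for ligands, R-spondins, secreted inhibitors, receptors, cytoplasmic transducers and nuclear factors, of 33938 genes in the deposited gene table. They were taken by symbol, and all 35 were found. The measurement was single-nucleus RNA-seq, in which UMIs (unique molecular identifiers) count RNA molecules per nucleus. The study has 2 libraries, 1 of genotype MEN1-F/F and 1 of genotype MEN1-NCKO, both of micro-dissected neocortex from embryonic brains. The gene named, Men1, encodes menin, and the title of the study links menin to the receptor EphA4 in neurons born late. Neither the embryonic age, the embryos per library, the Cre driver nor the targeted part of Men1 is given in the labels used here. No test was possible with a single library for each label. Levels are therefore set side by side with intervals that cover counting error only.

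Wnt ligands are lipid-modified secreted proteins that bind Frizzled receptors together with the co-receptors Lrp5 and Lrp6. In the canonical branch this halts the destruction complex of Apc, Axin and Gsk3b, so that beta-catenin (Ctnnb1) accumulates and acts with Lef1 and Tcf factors in the nucleus. In the non-canonical branch Wnt5a-type ligands act through Ror1, Ror2 and Ryk on cell polarity and movement. R-spondins bind Lgr receptors and remove the ligase Znrf3, which otherwise takes Frizzled proteins off the cell surface. Sfrp and Dkk proteins are secreted modulators, most of them inhibitors. In the embryonic cortex the pathway is known for the cortical hem, a medial signalling centre, and for the balance between dividing and differentiating progenitors.

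After filtering, the F/F-labelled library held 6130 nuclei and 26808305 UMIs, and the NCKO-labelled library held 9807 nuclei and 41345421 UMIs. Per nucleus, the median was 3665 UMIs in the first and 3581 in the second. Men1 itself was not lower in the NCKO-labelled library, with 278 UMIs (10.4 CPM, UMIs per 1000000 UMIs) against 559 UMIs (13.5 CPM). A 3' tag outside the targeted part would check nothing, so the libraries are called by their labels throughout. The libraries shared 15 barcodes. Nuclei were clustered without any of the Wnt genes described here and named by marker genes, and 9 populations had at least 100 nuclei in each library. These were, with nuclei in the F/F-labelled and then the NCKO-labelled library, radial glia-like (257 and 414), migrating excitatory neuron-like (588 and 715), upper-layer-like (1774 and 2276), layer 5-like (241 and 620), layer 6-like (680 and 1193), MGE-derived-like interneurons (578 and 936), CGE-derived-like interneurons (203 and 373), striatal or LGE-derived-like neurons (680 and 1007) and oligodendrocyte precursor-like nuclei (124 and 237). MGE, CGE and LGE are the medial, caudal and lateral ganglionic eminences, the ventral zones that produce interneurons and striatal neurons. Nuclei with markers of striatal or LGE-derived neurons thus stood in libraries labelled as neocortex, at 11.1% and 10.3% of kept nuclei. The summed level of the 11 radial glia markers was 6359 and 6344 CPM in the radial glia-like nuclei and 178 and 214 CPM in the upper-layer-like nuclei. The radial glia-like class also held a few nuclei with cortical hem, choroid plexus and ciliated-cell genes. Its values of Rspo2, Sfrp1, Ror2, Ror1, Wnt7a, Wnt7b and Lef1 are also given without them, and the others only with them.

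Over all kept nuclei the Wnt genes differed little between the libraries. Of the 35 genes, 33 had at least 50 UMIs. The receptor gene Ror2 was the one gene past 1.5-fold, and it was lower in the NCKO-labelled library. Among all genes tested, 0.763% were at least 1.5-fold lower and 0.419% at least 1.5-fold higher. The median log2 ratio (of CPM + 5, NCKO-labelled over F/F-labelled) was 0.01 for the 33 Wnt genes and 0.02 for all 17166 genes. Within populations, of 315 gene and population pairs, 151 had at least 50 UMIs, 16 were lower (10.6%) and 9 were higher (5.96%) past 1.5-fold. All genes were called more often within populations than over all nuclei too: over the same 9 populations, 3.28% of pairs of any gene were lower and 3.85% higher. Most of them were pairs of the secreted modulators and Ror2, while no Frizzled gene, no LRP co-receptor gene and no transduction gene passed 1.5-fold in any of the 9 populations. This statement covers the genes with enough UMIs, since Fzd5, Fzd7, Fzd10 and Nkd1 had under 50 UMIs in each of the 9 populations.

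**Figure D1:**
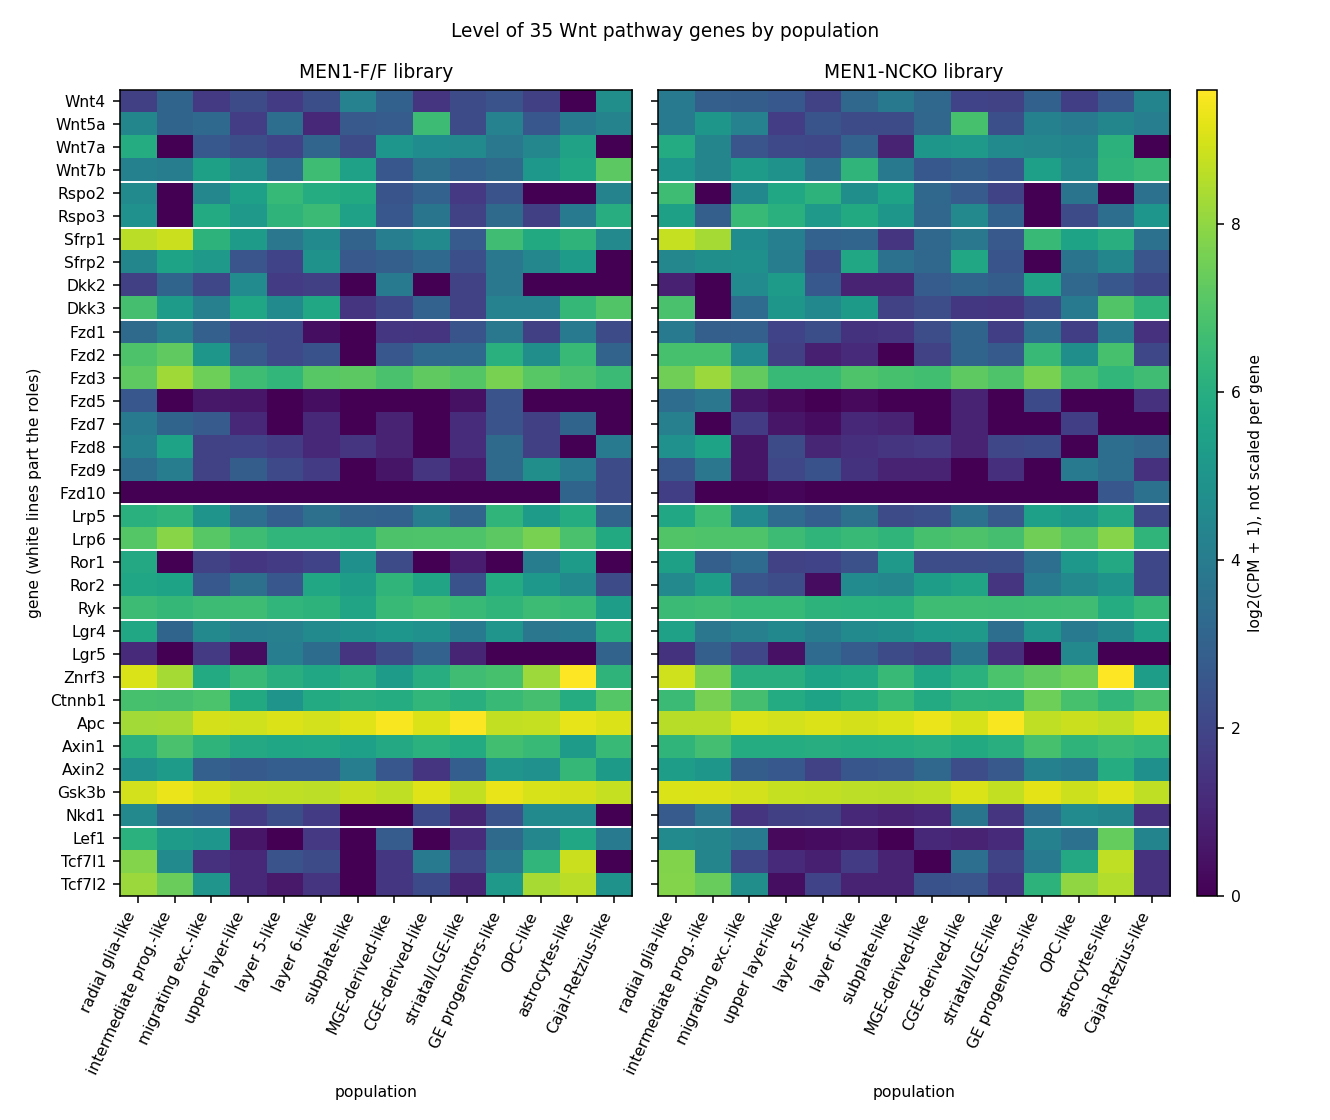
Level of the 35 Wnt genes (rows, grouped by role) as log2(CPM + 1) in 14 populations with at least 30 nuclei in each library (columns), with the F/F-labelled library on the left and the NCKO-labelled library on the right. Tcf7l1, Tcf7l2, Sfrp1 and Znrf3 are bright in radial glia-like nuclei in both panels, and Wnt5a is bright in CGE-derived-like interneurons, at 94.7 and 111 CPM.

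Among the 9 populations, the ligands had their highest levels in different ones. Wnt7a, a canonical ligand also used in brain vessel growth, was highest in radial glia-like nuclei, with 59.8 CPM in the F/F-labelled and 58.3 CPM in the NCKO-labelled library. Wnt7b, its close relative, was highest in layer 6-like neurons, with 96.6 CPM (exact Poisson 95% interval 86.5 to 107) and 76.8 CPM (69.6 to 84.4). The few Cajal-Retzius-like nuclei (39 and 117) held more Wnt7b, at 144 and 90.3 CPM. Wnt5a, the main non-canonical ligand, was highest in CGE-derived-like interneurons, with 94.7 CPM (71.2 to 124) and 111 CPM (92.1 to 134). Its next population stood at 20.4 CPM in the F/F-labelled library (radial glia-like) and 18.0 CPM in the NCKO-labelled library (migrating excitatory neuron-like). Wnt4 was scarce in all 9 populations, at 1.75 to 14.8 CPM. Its level was 339 and 199 CPM in a small group of meningeal fibroblast-like nuclei (15 and 41), which is too few to compare.

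Across the 9 populations, 33 Wnt genes could be ordered by level, and 22 had the same highest population in both libraries. For 9 of these 22, the interval of the highest population lay apart from that of the second in both libraries. The same counts were not made over all genes, so neither number can be called high or low for Wnt genes. With the 5 smaller populations of at least 30 nuclei added, 15 of 33 had the same highest population and 3 had intervals apart, so the order depends on which populations are ranked. In what follows, a gene's highest population is the highest of the 9. Radial glia-like nuclei were the highest of the 9 in both libraries for Wnt7a, Sfrp1, Dkk3, Fzd1, Fzd2, Fzd7, Fzd8, Lrp5, Ror1, Lgr4, Znrf3, Lef1 and Tcf7l1. Without the few nuclei with hem, choroid plexus and ciliated-cell genes, Ror1 stood there at 35.1 and 30.0 CPM. Oligodendrocyte precursor-like nuclei held Ror1 at 15.4 and 33.7 CPM, so its lead was then lost in the NCKO-labelled library. Fzd2 stood at 121 and 111 CPM in radial glia-like nuclei and at 32.7 CPM or less in the other 8. Fzd2 encodes a Frizzled receptor, and intermediate progenitor-like nuclei (55 and 62) held it at 153 and 112 CPM. Tcf7l1, a mostly repressive nuclear factor of the pathway, stood at 224 and 222 CPM in radial glia-like nuclei, with the next of the 9, oligodendrocyte precursor-like, at 79.4 and 54.1 CPM. Astrocyte-like nuclei (47 and 82) stood above both, with Tcf7l1 at 454 and 411 CPM and Znrf3 at 764 and 893 CPM. Tcf7l2 was shared between oligodendrocyte precursor-like (325 and 259 CPM) and radial glia-like nuclei (281 and 223 CPM), and the 2 intervals overlapped in each library. In upper-layer-like and layer 5-like neurons it did not exceed 2.85 CPM. Over the 9 populations the levels of Gsk3b were closer together: Gsk3b, the kinase of the destruction complex, ranged from 401 to 567 CPM in the F/F-labelled library and from 396 to 533 CPM in the NCKO-labelled library.

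**Figure D2:**
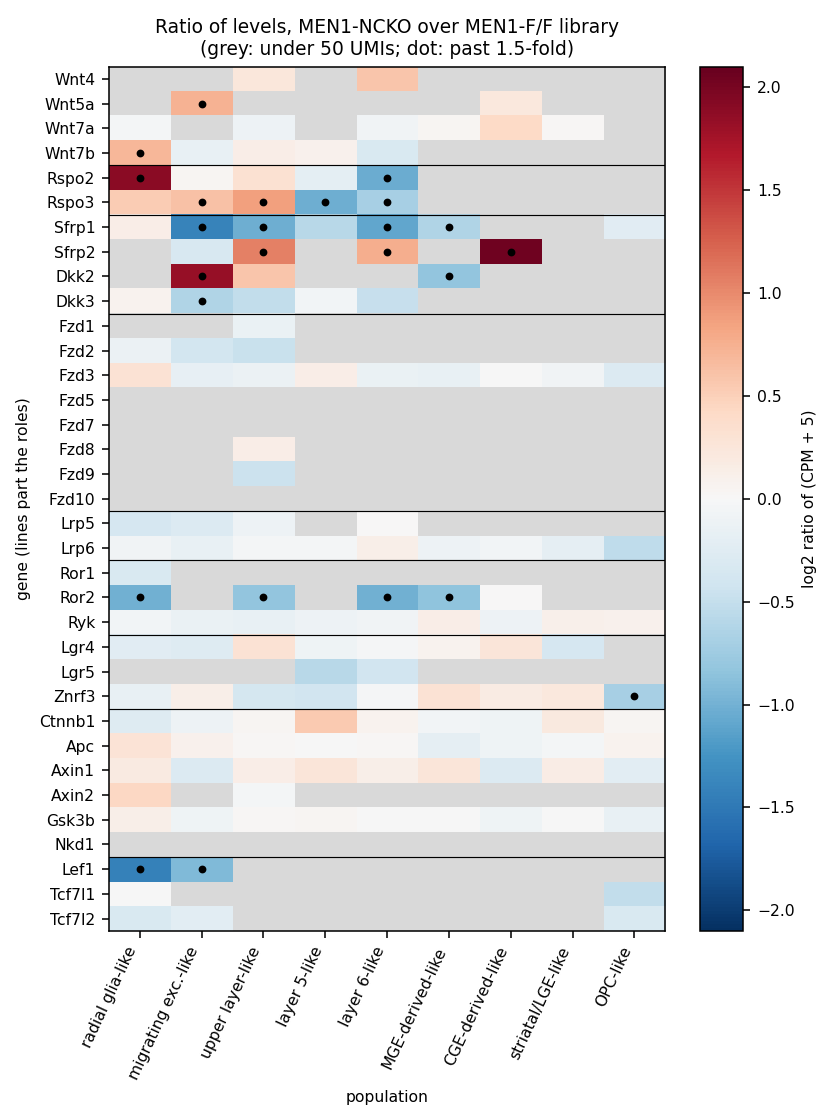
Log2 ratio of (CPM + 5), NCKO-labelled over F/F-labelled, for the 35 Wnt genes (rows, grouped by role) in the 9 compared populations (columns). Grey cells have under 50 UMIs over both libraries and a dot marks a ratio past 1.5-fold; dots gather in the rows of the R-spondins, Sfrp1, Sfrp2, Dkk2, Ror2 and Lef1, and among the receptor and transduction rows only Ror2 and Znrf3 hold any.

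Sfrp1, a secreted Frizzled-like protein that binds Wnt ligands, gave the broadest difference. Its position is chromosome 8, 23411502 to 23449632, plus strand (GRCm38). The level was lower under the NCKO label in 4 neuronal populations, and not in radial glia-like nuclei, the highest of the 9. Upper-layer-like neurons had 317 UMIs (39.0 CPM) in the F/F-labelled and 172 UMIs (16.7 CPM) in the NCKO-labelled library. The ratio was 0.428 (exact conditional 95% interval 0.353 to 0.517). In migrating excitatory neuron-like nuclei the levels were 72.2 and 24.2 CPM, a ratio of 0.335 (0.241 to 0.461). In layer 6-like neurons they were 22.3 and 7.75 CPM, a ratio of 0.348 (0.234 to 0.511). In MGE-derived-like interneurons they were 16 and 8.49 CPM, a ratio of 0.530 (0.313 to 0.893). Layer 5-like neurons stood just inside the 1.5-fold limit, at 13.0 and 7.01 CPM and a log2 ratio of -0.58. In radial glia-like nuclei the levels were 388 CPM (346 to 434) and 426 CPM (390 to 464), so these intervals overlapped. The lower level was also seen cluster by cluster. In the upper-layer-like clusters Sfrp1 stood at 24.9 against 13.1 CPM (led by Nwd2 and Inhba), 47.9 against 16.8 CPM (Hs6st2 and Frem2), 60.0 against 30.3 CPM (Ntf3 and Met) and 34 against 7.06 CPM (Cntnap5c and Grp).

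The background of these counts was 2.56% of genes lower and 1.43% higher in upper-layer-like neurons, 4.26% and 4.92% in migrating excitatory neuron-like nuclei, 2.23% and 2.67% in layer 6-like neurons, and 2.73% and 3.4% in MGE-derived-like interneurons. In upper-layer-like neurons, 2 of 25 measured Wnt genes were lower and 2 higher. In migrating excitatory neuron-like nuclei, 3 of 21 were lower and 3 higher. In layer 6-like neurons, 4 of 20 were lower and 1 higher, and in MGE-derived-like interneurons 3 of 13 were lower and none higher. Sfrp1 stayed past 1.5-fold under all 12 alternative settings in upper-layer-like, migrating and layer 6-like nuclei, and under 8 of 12 in MGE-derived-like interneurons. Intermediate progenitor-like nuclei, too few to compare (55 and 62), held Sfrp1 at 451 and 315 CPM. In the migrating excitatory neuron-like nuclei the summed radial glia markers were 217 and 205 CPM and the summed intermediate progenitor markers 884 and 785 CPM. The part of such progenitor RNA in the Sfrp1 difference was not tested. In upper-layer-like neurons the 10 upper-layer markers summed to 6863 and 5112 CPM and the 8 layer 5 markers to 1323 and 1711 CPM, with none at 0. The part of this shift in the Sfrp1, Sfrp2, Ror2 and Rspo3 values of these neurons was not tested.

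Sfrp2, a relative of Sfrp1 in the same family, went the other way. Its position is chromosome 3, 83766321 to 83774316, plus strand. The level was higher under the NCKO label in 3 populations. In CGE-derived-like interneurons it had 5 UMIs (8.77 CPM) in the F/F-labelled and 54 UMIs (51.4 CPM) in the NCKO-labelled library, a ratio of 5.86 (2.36 to 18.8). These UMIs came from 4 of 203 and 35 of 373 nuclei. Upper-layer-like neurons stood at 4.80 and 15.3 CPM (ratio 3.20, interval 2.24 to 4.66). In layer 6-like neurons they were 28.6 and 52.1 CPM, a ratio of 1.82 (1.45 to 2.31). In migrating excitatory neuron-like nuclei Sfrp2 stood at 35.9 and 27.3 CPM, with overlapping intervals. In CGE-derived-like interneurons 1 of 13 measured Wnt genes was past 1.5-fold, against 3.55% of all genes lower and 7.13% higher there. Markers of other classes moved too: the 9 MGE-derived interneuron markers summed to 665 and 1301 CPM in the CGE-derived-like nuclei, with 1 of 9 at 0 in each library, and the part of this in the Sfrp2 result was not tested. The CGE-derived-like value held under all 12 alternatives (log2 0.90 to 2.42). The upper-layer-like value was 0.11 without doublet removal and passed under 8 of 12. An antisense gene overlaps Sfrp2, and whether counting used strand is not stated in the labels. The same holds for 15 of the 35 genes, among them Wnt5a, Wnt7b, Rspo3 and Lef1.

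**Figure D3:**
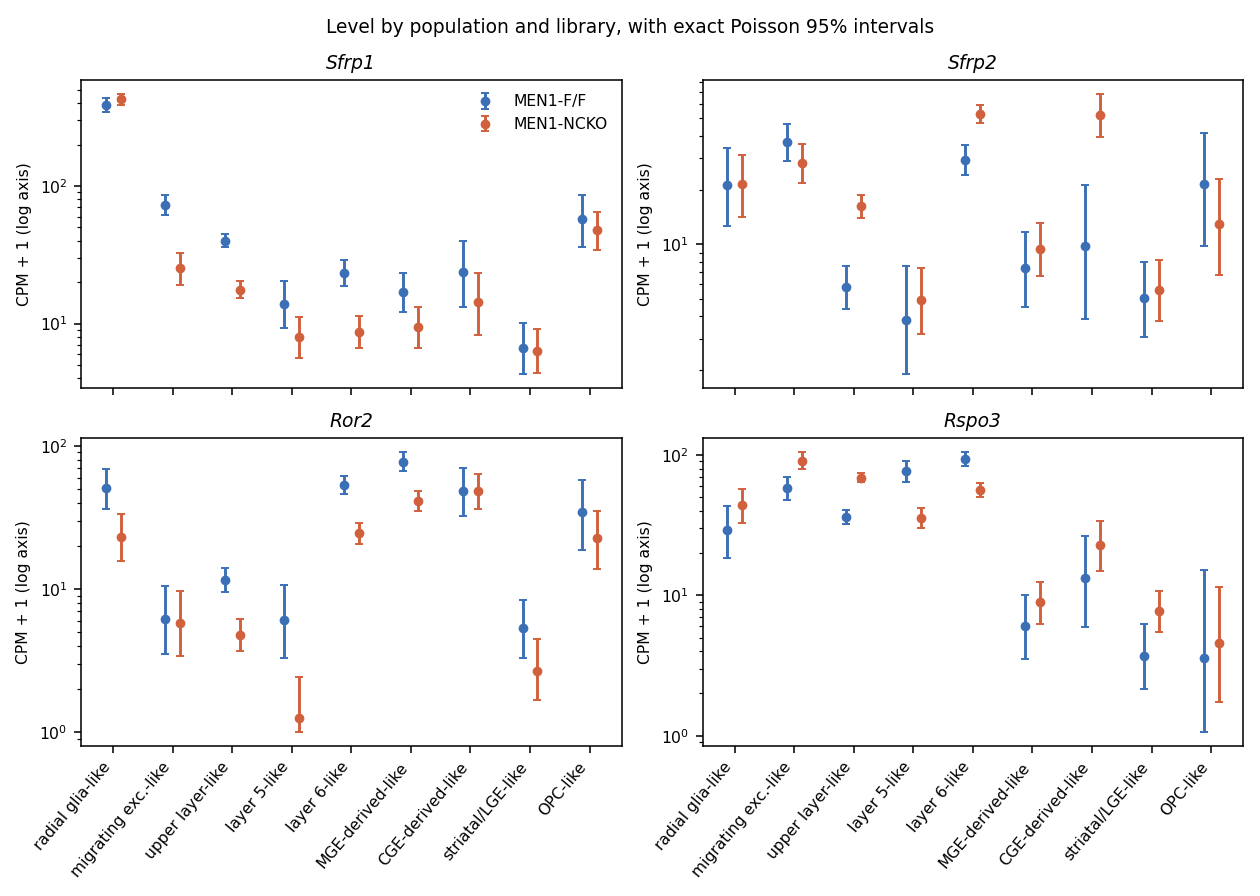
Level of Sfrp1, Sfrp2, Ror2 and Rspo3 (CPM + 1, log axis) in the 9 compared populations, 1 point per library with its exact Poisson 95% interval. Sfrp1 is level between the libraries in radial glia-like nuclei and lower under the NCKO label in upper-layer-like (39.0 and 16.7 CPM) and layer 6-like neurons; Rspo3 lies higher in upper-layer-like and lower in layer 5-like and layer 6-like neurons.

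Ror2, a receptor tyrosine kinase-like protein that binds Wnt5a, was the other broad difference. The gene spans 53109312 to 53286124 on chromosome 13, minus strand. Over all kept nuclei it had 715 UMIs (26.7 CPM) in the F/F-labelled and 617 UMIs (14.9 CPM) in the NCKO-labelled library, a ratio of 0.560 (0.502 to 0.624). It was lower past 1.5-fold in 4 of the 5 populations in which it was measured. In MGE-derived-like interneurons, its highest population in the F/F-labelled library, the levels were 76.4 and 40.4 CPM, a ratio of 0.529 (0.419 to 0.666). In layer 6-like neurons they were 52.3 and 23.6 CPM, a ratio of 0.451 (0.358 to 0.568). In radial glia-like nuclei they were 49.6 and 22.2 CPM, a ratio of 0.447 (0.263 to 0.748). Upper-layer-like neurons stood at 10.6 and 3.78 CPM (ratio 0.358, interval 0.239 to 0.528). The exception was CGE-derived-like interneurons, at 47.4 CPM (31.2 to 68.9) and 47.6 CPM (35.3 to 62.8). The order of populations therefore changed at the top: CGE-derived-like interneurons led in the NCKO-labelled library, with an interval that overlapped that of MGE-derived-like interneurons. Ror2 stayed past 1.5-fold in radial glia-like nuclei under all 13 alternatives run there and in layer 6-like and MGE-derived-like nuclei under all 12. In upper-layer-like neurons it did so under 8 of 12. Over all nuclei it ended at a log2 ratio of -0.42 with a pseudocount of 20 CPM.

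The 2 other non-canonical receptors did not share this. Ryk, which binds Wnt ligands through an extracellular WIF domain, was measured in all 9 populations, with log2 ratios from -0.16 to 0.13. Ror1 was measured in 1 of them, radial glia-like nuclei, at 54.7 and 42.7 CPM with overlapping intervals. Over all kept nuclei Ror1 stood at 8.47 and 14.5 CPM, a log2 ratio of 0.54, inside 1.5-fold on the scale used. Its level was far higher in meningeal fibroblast-like nuclei (1111 and 1293 CPM), of which there were 15 and 41. In these Ror2 stood at 922 CPM (682 to 1220) and 501 CPM (402 to 618). The share of the meningeal nuclei in the Ror1 value over all nuclei was not tested.

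The promoters of the members past 1.5-fold in at least 3 populations were looked up in the RefSeq promoter table (GRCm38.p6), which held 20 of the 35 genes. It has Ror2 and Sfrp2, shown here as the genes that lay lower and higher in the NCKO-labelled library; Sfrp1 and Rspo3 are not analysed here. Each is the 250 bases before the start, 5′ to 3′ on the gene's strand, with CG dinucleotides in capitals. The Ror2 window is chr13:53286125-53286374 on the minus strand and the Sfrp2 window chr3:83766071-83766320 on the plus strand.
Ror2: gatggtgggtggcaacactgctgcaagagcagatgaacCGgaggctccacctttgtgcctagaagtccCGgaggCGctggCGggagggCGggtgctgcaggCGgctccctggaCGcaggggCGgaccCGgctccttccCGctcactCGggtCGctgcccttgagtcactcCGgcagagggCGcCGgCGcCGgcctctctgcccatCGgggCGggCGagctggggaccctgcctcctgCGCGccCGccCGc
Sfrp2: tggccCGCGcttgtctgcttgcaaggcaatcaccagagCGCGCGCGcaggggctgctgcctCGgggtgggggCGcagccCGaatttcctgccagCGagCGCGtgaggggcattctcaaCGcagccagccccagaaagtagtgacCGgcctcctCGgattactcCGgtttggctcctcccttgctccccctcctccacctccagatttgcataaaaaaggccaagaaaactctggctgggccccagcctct
Ror2 has 24 CG dinucleotides in this window and Sfrp2 has 16, against a median of 6 over 32817 promoters, and 12% and 25.4% of all promoters have as many or more. The TCF/LEF motif CTTTGAT, searched on both strands (reverse ATCAAAG), is in 3.21% of all promoters over the same length and in none of the 25 windows of the 20 Wnt genes. A match or its absence is a description of these letters only.

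Of the R-spondins, Rspo3 differed in opposite directions between layers, and Rspo2 passed 1.5-fold in 1 layer. Rspo3 encodes a secreted potentiator of Wnt signalling and spans 29452416 to 29535867 on chromosome 10, minus strand. Upper-layer-like neurons had 287 UMIs (35.3 CPM) in the F/F-labelled and 702 UMIs (68.1 CPM) in the NCKO-labelled library, a ratio of 1.93 (1.68 to 2.22). In migrating excitatory neuron-like nuclei it was also higher, at 57.2 and 90.2 CPM, a ratio of 1.58 (1.25 to 2.01). In layer 5-like neurons it was lower, at 75.7 and 34.8 CPM, a ratio of 0.459 (0.359 to 0.588). In layer 6-like neurons it was lower as well, at 92.6 and 55.5 CPM, a ratio of 0.599 (0.511 to 0.703). Over all nuclei the 2 directions nearly cancelled, at 39.1 and 43.4 CPM. The population with the highest Rspo3 level was thus layer 6-like in the F/F-labelled library and migrating excitatory neuron-like in the NCKO-labelled library. Layer 5-like neurons had 1 of 15 measured Wnt genes lower and none higher, where 2.53% of all genes were lower and 2.88% higher. The upper-layer-like value passed under all 12 alternatives, the layer 5-like value under 11, and the layer 6-like and migrating values under 8 each, down to log2 ratios of -0.39 and 0.23.

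Within layers, single clusters carried the Rspo3 differences unevenly. In the upper-layer-like clusters Rspo3 stood at 31.3 and 65.5 CPM (led by Nwd2 and Inhba), 39.6 and 110 CPM (Hs6st2 and Frem2), 48.6 and 87.2 CPM (Ntf3 and Met) and 25.8 and 24.3 CPM (Cntnap5c and Grp). The last of these thus lay level, and the other three were higher. In the layer 6-like clusters it stood at 72.6 and 39.1 CPM (led by Hs3st4 and Htr1f), 200 and 113 CPM (Adgra1 and Etl4), 275 and 188 CPM (Nts and Myo5b) and 26.1 and 40.4 CPM (Npy and Rspo2). The Hs6st2 and Frem2 cluster held most F/F-labelled upper-layer-like nuclei of any cluster (669), and the Nwd2 and Inhba cluster most NCKO-labelled ones (739). With the clusters of each class given their F/F-labelled weights, 18 pairs were lower and 8 higher, close to the main counts.

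Rspo2, the second R-spondin, was lower past 1.5-fold in layer 6-like neurons. Its highest population was layer 5-like in the F/F-labelled library and radial glia-like in the NCKO-labelled library. Without the few nuclei with hem, choroid plexus and ciliated-cell genes, radial glia-like nuclei held Rspo2 at 4.05 and 2.81 CPM. Layer 5-like neurons then led in both libraries. The gene spans 43020794 to 43170826 on chromosome 15, minus strand. In layer 6-like neurons it had 213 UMIs (60.9 CPM) and 149 UMIs (26.8 CPM), a ratio of 0.441 (0.355 to 0.546). In the cluster led by Npy and Rspo2 itself the levels were 281 and 109 CPM, and in the largest layer 6-like cluster, led by Hs3st4, they were 13.7 and 13.0 CPM. Layer 5-like neurons stood at 85.9 CPM (72.8 to 101) and 73.4 CPM (65.1 to 82.5), and upper-layer-like neurons at 41.8 and 53.3 CPM, neither past 1.5-fold. The layer 6-like value passed under 11 of 12 alternatives; at Leiden resolution 0.5, where clusters are coarser, it was -0.07.

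**Figure D4:**
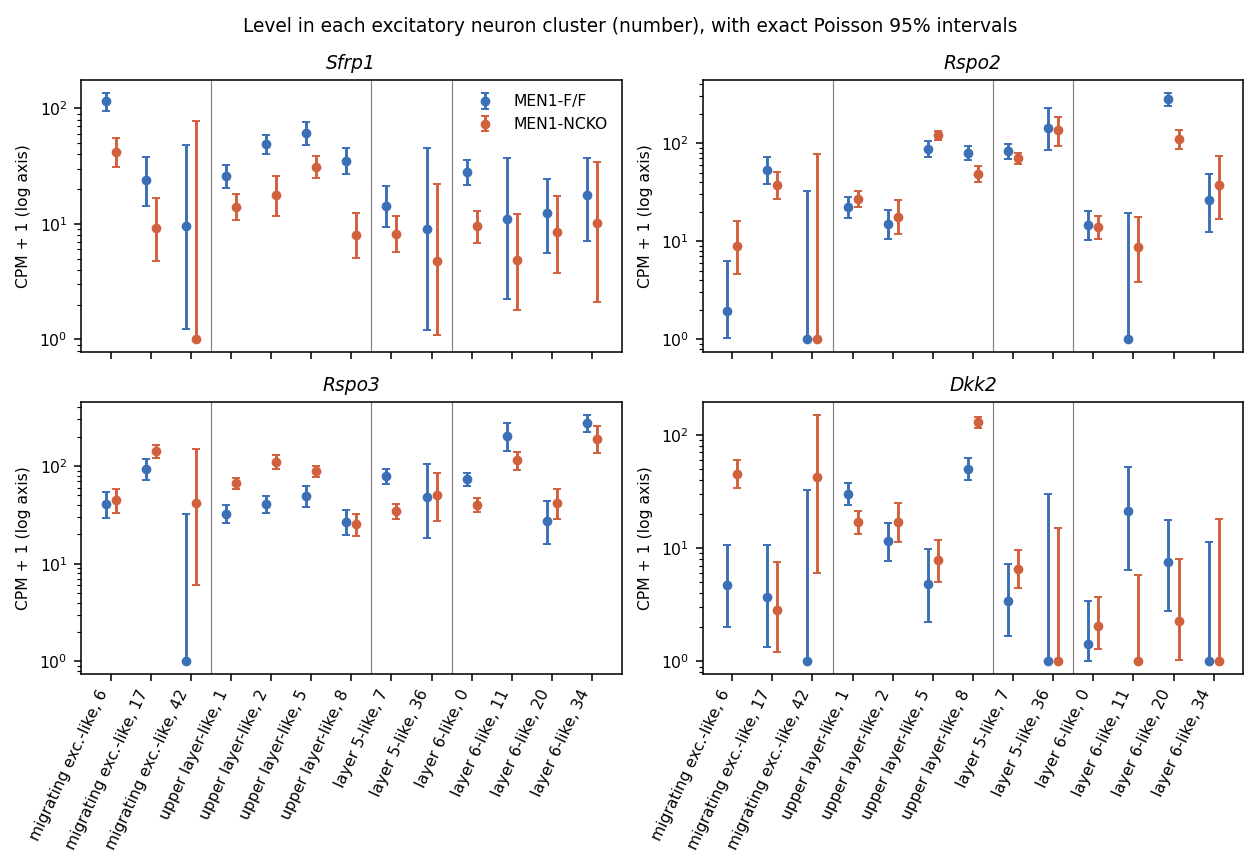
Level of Sfrp1, Rspo2, Rspo3 and Dkk2 (CPM + 1, log axis) in each cluster of the excitatory neuron-like populations, 1 point per library with its exact Poisson 95% interval, and the cluster number after the population's name. Rspo2 parts the libraries in layer 6-like cluster 20 (281 and 109 CPM) and Dkk2 in migrating cluster 6 and upper-layer-like cluster 8, while Sfrp1 lies lower under the NCKO label in each of the 4 upper-layer-like clusters.

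Dkk2, a secreted protein that binds the LRP co-receptors, differed with direction by population. The gene spans 132085292 to 132180304 on chromosome 3, plus strand. In migrating excitatory neuron-like nuclei it had 6 UMIs (3.12 CPM) in the F/F-labelled and 54 UMIs (23.8 CPM) in the NCKO-labelled library, a ratio of 7.62 (3.28 to 21.7). These came from 6 of 588 and 19 of 715 nuclei, and 26 of the 54 UMIs came from 5 nuclei. In MGE-derived-like interneurons Dkk2 was lower, at 14.2 and 5.85 CPM, a ratio of 0.413 (0.223 to 0.747), from 12 nuclei in each library. Its highest population was upper-layer-like, at 24.0 and 38.2 CPM, a log2 ratio of 0.58, just inside the limit. There the Cntnap5c and Grp cluster stood at 49.2 and 128 CPM, and the Nwd2 and Inhba cluster at 29.2 and 15.9 CPM. So Dkk2 lay higher in one upper-layer-like cluster and lower in another. The migrating value passed under all 12 alternatives and the MGE-derived-like value under 9. In the MGE-derived-like nuclei the summed migrating excitatory neuron markers were 1281 and 2301 CPM and the CGE markers 524 and 987 CPM, and their part in the values there was not tested.

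Dkk3, a divergent member of the Dickkopf family, was highest among the 9 in radial glia-like nuclei, at 109 and 115 CPM. Cajal-Retzius-like nuclei held it at 126 and 75.8 CPM and astrocyte-like nuclei at 83.2 and 125 CPM. It passed 1.5-fold in migrating excitatory neuron-like nuclei, at 17.1 and 9.24 CPM, with 33 and 21 UMIs. That ratio of 0.539 (0.296 to 0.959) passed under 5 of 12 alternatives and turned direction under 3. In upper-layer-like and layer 6-like neurons it was lower within the limit, at 49.8 and 33.3 CPM and at 53.1 and 36.6 CPM. Wnt5a, with 17 and 41 UMIs in the migrating nuclei (8.83 and 18.0 CPM), passed under 6 of 12 and was -0.06 without doublet removal.

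The radial glia-like population was not uniform, and its Wnt differences depended on that. Of 23 measured Wnt genes, 2 were lower (Ror2 and Lef1) and 2 higher (Rspo2 and Wnt7b), against 5.6% of all genes lower and 7.59% higher there. Markers of other classes moved too in these nuclei. The CGE-derived interneuron markers summed to 677 and 306 CPM and the migrating excitatory neuron markers to 1093 and 1690 CPM. The part of these shifts in the Wnt values was not tested. Rspo2 had 18 UMIs (22.9 CPM) in the F/F-labelled and 120 UMIs (98.5 CPM) in the NCKO-labelled library, a ratio of 4.30 (2.61 to 7.50). They came from 4 and 14 nuclei, with 15 and 30 UMIs in the highest single nucleus. The larger radial glia-like cluster was therefore split, after these values were seen, into 5 sub-clusters. The fifth, with 13 and 32 nuclei and led by Ttr, Cdc20b and Dnah12, held 15 and 117 of the Rspo2 UMIs. Ttr marks choroid plexus, and Cdc20b and Dnah12 are genes of ciliated cells. It also held Wnt3a (1 and 10 UMIs), Wnt8b (6 and 16 UMIs) and Lmx1a (10 and 35 UMIs), genes known from the cortical hem. In the other 4 sub-clusters Wnt3a was at 0. Pax6, a radial glia marker, stood at 90.0 and 72.8 CPM in the fifth sub-cluster. In the other 4 it ranged from 77.7 to 299.7 CPM in the F/F-labelled library and from 222 to 411 CPM in the NCKO-labelled library.

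Without that sub-cluster, Rspo2 in radial glia-like nuclei had 3 UMIs in each library and a log2 ratio of -0.21. The higher Rspo2 level thus rested on these 13 and 32 nuclei, of which 1 and 11 had an Rspo2 UMI. Within these nuclei the composition differed too: Ttr had 1140 UMIs in 13 F/F-labelled and 278 in 32 NCKO-labelled nuclei, while Cdc20b had 1 and 345. Over the whole radial glia-like class the 7 hem and choroid plexus markers summed to 1538 and 292 CPM. Most of the F/F-labelled sum was Ttr, whose UMIs in the fifth sub-cluster came from 5 and 4 nuclei. There Lmx1a stood level, at 225 and 232 CPM. Otx2 (338 and 33.1 CPM), Folr1 (180 and 26.5 CPM) and Clic6 (158 and 26.5 CPM) lay lower under the NCKO label there. Sfrp1 without the sub-cluster stood at 407 and 469 CPM, Ror2 at 52.6 and 23.4 CPM and Wnt7a at 63.4 and 65.6 CPM. Ror2 thus stayed past 1.5-fold and the other two stayed within it.

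**Figure D5:**
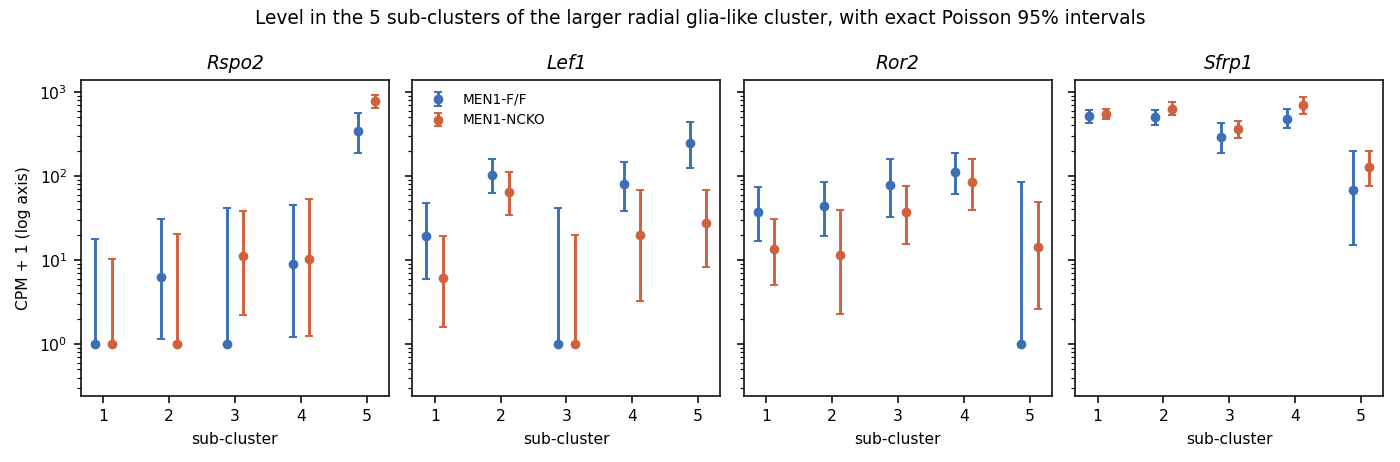
Level of Rspo2, Lef1, Ror2 and Sfrp1 (CPM + 1, log axis) in the 5 sub-clusters of the larger radial glia-like cluster, 1 point per library with its exact Poisson 95% interval. Rspo2 is confined here almost wholly to sub-cluster 5 (15 and 117 UMIs), Sfrp1 lies lowest there, and Lef1 is highest in sub-clusters 2, 4 and 5.

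Lef1, the nuclear factor that binds beta-catenin at target genes, was lower under the NCKO label in radial glia-like nuclei. The gene spans 131110471 to 131224356 on chromosome 3, plus strand. It had 55 UMIs (70.0 CPM) and 28 UMIs (23.0 CPM), a ratio of 0.328 (0.201 to 0.527), from 32 and 19 nuclei. Without the fifth sub-cluster it had 44 and 24 UMIs, a ratio of 0.379 (0.220 to 0.637). The second sub-cluster, led by Adamts19 and Emid1, held 19 and 12 of the Lef1 UMIs in 9 and 6 nuclei. Lef1 levels there were 101 CPM (61.0 to 158) and 63.7 CPM (32.9 to 111), with overlapping intervals. The first sub-cluster, where Lef1 was low (18.3 and 5.04 CPM), held 76 of 228 and 166 of 368 nuclei of the larger cluster. The part of this make-up in the Lef1 ratio was not tested. A log2 ratio of -0.26 was found with all deposited barcodes, where neither low-quality barcodes nor doublets were removed, and Lef1 passed under the other 12 alternatives run for this population. In migrating excitatory neuron-like nuclei Lef1 stood at 32.2 and 14.5 CPM, a ratio of 0.451 (0.286 to 0.698), which turned direction under 3 of 12 alternatives. Lef1 was far more abundant in endothelial-like nuclei, at 874 CPM in 50 NCKO-labelled nuclei. The F/F-labelled library had 3 such nuclei. In astrocyte-like nuclei Lef1 lay the other way, at 52.9 CPM (21.3 to 109) and 161 CPM (110 to 227), from 7 and 32 UMIs. The other 2 nuclear factors were not past 1.5-fold in any measured population: Tcf7l1 had log2 ratios from -0.51 to -0.01 in 2 populations, and Tcf7l2 from -0.33 to -0.23 in 3.

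Wnt7b in radial glia-like nuclei had 14 and 39 UMIs, 17.8 and 32.0 CPM. The interval of its ratio, 1.80 (0.955 to 3.58), reached below 1, and the ratio passed under 8 of 13 alternatives. Without the fifth sub-cluster Wnt7b had 12 and 36 UMIs (16.2 and 33.7 CPM), under the limit of 50 UMIs for a call. Axin2, a standard readout of canonical signalling because beta-catenin activates it, was highest over both libraries in radial glia-like nuclei among the 9 populations. There it had 22 UMIs (28.0 CPM) and 48 UMIs (39.4 CPM), and the interval of the ratio spanned 1 (0.833 to 2.45).

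Znrf3, the membrane ligase that R-spondins counteract, was measured in all 9 populations and passed 1.5-fold in oligodendrocyte precursor-like nuclei alone. It had 115 UMIs (295 CPM) in the F/F-labelled and 149 UMIs (179 CPM) in the NCKO-labelled library, a ratio of 0.608 (0.474 to 0.782). It was 1 of 11 measured Wnt genes there, with 7.36% of all genes lower and 7.83% higher. Of the 2 clusters in this class, the one led by Gna14, Olig1 and Egfr stood at 465 and 308 CPM and the one led by Sox10 and Pdgfra at 166 and 132 CPM. The first held 56 nuclei of 124 in the F/F-labelled library and 72 of 237 in the other. With the 2 clusters given their F/F-labelled weights the log2 ratio was -0.50, inside the limit. The summed radial glia markers were 1402 and 985 CPM in this class, and Znrf3 is high in radial glia-like nuclei (533 and 475 CPM). Their part was not tested.

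The remaining receptors and transducers gave small differences. Fzd3, a Frizzled of axon guidance and polarity, had log2 ratios from -0.28 to 0.30 over 9 populations and was highest over both libraries in radial glia-like nuclei (149 and 184 CPM). The co-receptor Lrp6 ranged from -0.54 to 0.12 over 9 populations and was highest in oligodendrocyte precursor-like nuclei (200 and 136 CPM). Lrp5 ranged from -0.35 to 0.01 over 4 and was highest in radial glia-like nuclei (67.4 and 51.7 CPM). Fzd2 was measured in 3 populations (-0.47 to -0.12), and Fzd1, Fzd8 and Fzd9 in upper-layer-like neurons alone. Among the 9, radial glia-like nuclei held the highest levels of Fzd1 (8.91 and 14.8 CPM), Fzd7 (14 and 17.2 CPM), Fzd8 (17.8 and 27.9 CPM) and Fzd5 (5.09 and 9.85 CPM), each from under 50 UMIs. Intermediate progenitor-like nuclei held Fzd8 at 45.9 CPM in each library, from 6 and 7 UMIs. Fzd10 had under 50 UMIs in each of the 9 populations, and Fzd9 stood at 25.6 and 14.4 CPM in oligodendrocyte precursor-like nuclei. Lgr4, an R-spondin receptor, ranged from -0.35 to 0.31 over 8 populations and was highest in radial glia-like nuclei (53.4 and 44.3 CPM). Lgr5, the second such receptor, was measured in the 2 deep-layer populations (-0.58 and -0.40), and had 0 and 18 UMIs in oligodendrocyte precursor-like nuclei. Among the transducers, Apc ranged from -0.19 to 0.28, Axin1 from -0.29 to 0.26, Gsk3b from -0.16 to 0.12 and Ctnnb1 from -0.27 to 0.54, each over 9 populations. Apc was highest in striatal or LGE-derived-like neurons (753 and 730 CPM), and Ctnnb1, over both libraries together, in migrating excitatory neuron-like nuclei (116 and 108 CPM). In oligodendrocyte precursor-like nuclei, their highest population over both libraries, Axin1 stood at 89.7 and 75.8 CPM, Ryk at 94.8 and 101 CPM and the feedback inhibitor Nkd1 at 23.1 and 24.1 CPM. The highest Ctnnb1 log2 ratio was in layer 5-like neurons, at 30.5 and 46.7 CPM. Striatal or LGE-derived-like neurons had no Wnt gene past 1.5-fold among 10 measured, where 1.98% of all genes were lower and 2.4% higher.

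The rest of the pathway was read from 7 lists with 112 further genes, of which 88 had at least 50 UMIs over all kept nuclei. Of these 88, 2 were lower past 1.5-fold, Wnt5b and Reck, and none was higher, with a median log2 ratio of 0.03. Among all genes, 0.763% were lower and 0.419% higher over all nuclei. By list, 1 of 7 measured ligands and agonists and 1 of 10 receptors and co-receptors were lower. Over all nuclei, none of 9 secreted and membrane inhibitors, 25 cytoplasmic transducers, 13 nuclear partners, 18 planar polarity genes and 11 known target genes passed in either direction, and a few genes stand on more than 1 list. Within the 9 populations 503 pairs of these genes were measured, of which 29 were lower (5.77%) and 17 higher (3.38%). Of pairs of any gene, 3.28% were lower and 3.85% higher. By list, 7 of 26 ligand pairs, 8 of 39 receptor pairs, 5 of 21 inhibitor pairs and 4 of 25 target gene pairs were lower, against 2 of 177 cytoplasmic, 3 of 128 planar polarity and none of 91 nuclear partner pairs. Higher pairs numbered 8 for planar polarity (6.25%), 6 for nuclear partners (6.59%), 1 each for ligands, receptors and cytoplasmic genes, and none for inhibitors and targets. The lower ligand pairs were of Wnt5b and Wls alone. Wls was lower in migrating, layer 6-like and striatal or LGE-derived-like nuclei and higher in oligodendrocyte precursor-like nuclei. The lower receptor pairs were of Reck (migrating, upper-layer-like, layer 6-like and striatal or LGE-derived-like), Tspan12, Gpc4 and Ptk7. The lower inhibitor pairs were Draxin in 4 populations (radial glia-like, MGE-derived-like, CGE-derived-like and oligodendrocyte precursor-like) and Kremen1 in radial glia-like nuclei. The lower target pairs were Tnfrsf19 in migrating, layer 6-like and oligodendrocyte precursor-like nuclei and Ccnd1 in the last. Tle4, a co-repressor that is also a layer 6 marker, was higher in radial glia-like, upper-layer-like and oligodendrocyte precursor-like nuclei. Wls, Tspan12, Gpc4, Ptk7, Draxin, Kremen1, Tnfrsf19, Ccnd1 and Tle4 were named after their values were seen. Wnt5b, a non-canonical ligand close to Wnt5a, had the lowest ratio, with 38.4 and 18.1 CPM (1029 and 750 UMIs) and a log2 ratio of -0.91. Wnt5b was lower past 1.5-fold in radial glia-like (48.4 and 22.2 CPM), migrating (51.4 and 17.1 CPM), upper-layer-like (55.1 and 21.3 CPM) and layer 5-like nuclei (15.8 and 7.52 CPM). Wnt5b and Ror2 were thus both lower in radial glia-like and upper-layer-like nuclei of the NCKO-labelled library. In no other population were both genes called. Ror2 was lower in layer 6-like and MGE-derived-like nuclei, where Wnt5b was not called. Wnt5b was lower in migrating and layer 5-like nuclei, where Ror2 had under 50 UMIs and could not be called. The 2 genes were set together after their values were seen, and a link was not tested. Wnt5a itself had under 50 UMIs in radial glia-like and in upper-layer-like nuclei. Reck, a membrane protein that with Adgra2 presents Wnt7 ligands, followed at -0.61, and Celsr1, a planar polarity cadherin, at -0.53. The highest ratios were those of Vangl1 (0.36), Myc (0.31) and Adgra2 (0.31), all within 1.5-fold.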

How the data were processed

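Nuclear RNA of 2 libraries was measured with 10x Genomics 3' v3 chemistry. The deposited values are raw UMI counts per gene and barcode, which per the file headers the authors made using Cell Ranger 6.1.0. The submitters' processing notes name mm10 and, without a role, Seurat. The members and gene lists were chosen with earlier results of these data known.

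The files held 6477 and 10750 barcodes. Barcodes with under 500 genes (10 and 19), over 5% mitochondrial UMIs (1 and 0) or high doublet scores (336 and 924; 0.8% per 1000 barcodes, Scrublet approach) were left out. Nuclei were scaled to 10000 UMIs, log-transformed, reduced to 30 components of 2000 variable genes and clustered for both libraries together (leidenalg 0.10.2, resolution 1; scipy 1.17.1, numpy 2.4.6, Python 3.11.15). All 148 listed Wnt genes were kept out; 18 of the members would otherwise have been used. Clusters were named where at least 3 fixed markers were raised 1.5-fold and the best class led by 0.1. The mean marker log2 ratio of that class also had to reach 0.5, and the leading genes must not speak for another class. Of 48 clusters 36 were named, and 642 and 1315 nuclei stayed unnamed.

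UMIs were summed per library and population and given as CPM. Levels carry exact Poisson and ratios exact conditional binomial 95% intervals, for counting error only. A gene was called past 1.5-fold on log2 of (CPM + 5) with at least 50 UMIs over both libraries; the pseudocount draws low genes towards 0. Described are members past 1.5-fold or in their highest population, and the 3 highest and 3 lowest other pathway genes with at least 100 UMIs. The procedure was tested on simulated data. Positions are from GENCODE vM21 (all 35 members matched by symbol). Tle4, Sp8 and Neurog1 are on both a pathway and a marker list. Pseudocounts, filters, scaling, thinning to 1000 UMIs, cluster settings and class rules were varied, and leaving out the fifth radial glia-like sub-cluster was added after seeing the data.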

Additional observations from a re-analysis of the deposited data

Results flagged for a closer look

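3 genes lay past 1.5-fold in one direction in one population and in the other direction in a second, with both ratio intervals clear of 1. The share of all genes that meet this rule was not counted, so the 3 cannot be read as particular to Wnt genes. With 1 library per label, the difference between populations was not tested. Rspo2 had a log2 ratio of 1.89 in radial glia-like nuclei and of -1.05 in layer 6-like neurons; the first value rested on few nuclei, as described above. Rspo3 had a log2 ratio of 0.86 in upper-layer-like neurons and of -1.02 in layer 5-like neurons. Dkk2 had a log2 ratio of 1.82 in migrating excitatory neuron-like nuclei and of -0.82 in MGE-derived-like interneurons.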

How the results depend on the processing

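No paired analysis was possible because each label has 1 library, and for the same reason no replicate could be left out. The main counts were 1 lower and 0 higher over all nuclei, and 16 lower and 9 higher pairs. Over all nuclei 1 gene was higher with a pseudocount of 1 CPM, without doublet removal and with all deposited barcodes, and 0 genes were lower with 20 CPM. Pairs higher numbered 4 with 20 CPM, 5 without doublet removal, 5 with all deposited barcodes (8 populations), 5 at resolution 2 (8 populations), 5 at a minimum of 100 UMIs, 14 at 20 UMIs and 24 with no minimum. Pairs lower numbered 7 after thinning to 1000 UMIs, 10 at 100 UMIs and 29 with no minimum. Of 26 called values, 22 kept their sign and 9 stayed past 1.5-fold under every alternative run. Values that turned were Rspo2 in radial glia-like nuclei (-0.42 without doublet removal, -0.58 at resolution 2, -0.21 without the fifth sub-cluster) and, in migrating excitatory neuron-like nuclei, Wnt5a (-0.056 without doublet removal), Lef1 (0.22 without doublet removal, 0.41 with all barcodes, 0.38 at resolution 0.5) and Dkk3 (0.69 with all barcodes, 0.67 at resolution 0.5, 0.14 when genes over 2-fold apart were left out of the clustering). The cause was not tested. The number of genes with the same highest population was 15 to 24 over the alternatives. Scaling by the median of ratios moved all genes by less than 0.1 in each population.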
